A study of Mus musculus with 11 samples.

Results

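The 10 genes of the gate between glycolysis and the citric acid cycle are described here, the pyruvate dehydrogenase complex with its kinases, a phosphatase and the pyruvate carrier, in quadriceps muscle of aged mice. They were chosen by symbol, as Pdha1, Pdhb, Dlat, Pdhx, Pdk1, Pdk2, Pdk3, Pdk4, Pdp1 and Mpc1, and all 10 were found among the 53465 genes of the count table. RNA was sequenced from 5 libraries of mice given the solvent DMSO and 6 of mice given myriocin, an inhibitor of serine palmitoyltransferase, which starts the synthesis of sphingolipids. The labels write the strain of both groups as C57L/6JRj, and treatment ran for 10 weeks from an age of 18 months. The sources used here do not give dose, route or sex. Nothing in the labels states that the libraries came from separate mice, so the p-values reflect only the scatter of these libraries. Libraries of a group differed by more than counting error, with a chi-square per degree of freedom of 8.91 to 48.9 between pairs. The source of this scatter was not tested.

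Pyruvate dehydrogenase is a large assembly in the mitochondrial matrix that turns pyruvate into acetyl-CoA, the step that commits sugar carbon to oxidation. The kinases Pdk1 to Pdk4 phosphorylate the alpha subunit and switch the complex off, and the phosphatases Pdp1 and Pdp2 remove the phosphate and switch it on. In muscle Pdk4 is the kinase known to rise with fasting and fatty acid supply, through PPAR, FoxO and glucocorticoid receptors, while Pdk2 is the kinase expressed broadly at rest.

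Pdk4 had the widest range of levels among the members, so the stretch before its start is shown beside those of Pdk2 and Pdk1, the other kinase genes with more than trace expression. Each runs from 250 to 32 bases before the RefSeq start (GRCm38.p6, 219 bases, written 5′ to 3′ on the strand of the gene), and none reaches the start annotated by GENCODE. Capitals mark matches to the 8 motifs searched on both strands.
Pdk4, chr6:5496310-5496528, minus strand: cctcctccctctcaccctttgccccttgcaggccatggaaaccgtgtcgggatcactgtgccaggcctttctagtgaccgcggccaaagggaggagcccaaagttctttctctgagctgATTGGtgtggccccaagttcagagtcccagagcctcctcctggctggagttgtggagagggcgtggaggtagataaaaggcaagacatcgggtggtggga
Pdk2, chr11:95041403-95041621, minus strand: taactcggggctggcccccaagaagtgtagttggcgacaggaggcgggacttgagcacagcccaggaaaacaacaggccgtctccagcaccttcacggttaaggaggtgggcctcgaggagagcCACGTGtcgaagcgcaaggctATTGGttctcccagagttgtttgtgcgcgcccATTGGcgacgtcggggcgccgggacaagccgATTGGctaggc
Pdk1, chr2:71872974-71873192, plus strand: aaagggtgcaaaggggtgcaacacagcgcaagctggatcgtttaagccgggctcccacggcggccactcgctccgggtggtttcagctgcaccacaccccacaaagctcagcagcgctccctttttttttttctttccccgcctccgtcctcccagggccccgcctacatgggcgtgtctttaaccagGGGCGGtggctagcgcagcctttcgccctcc
The Pdk4 window held 1 match, a CCAAT box on the opposite strand, 131 bases before the start. The Pdk2 window held 3 CCAAT boxes and 1 E-box, CACGTG, and the Pdk1 window 1 GC box, GGGCGG. Over the 32851 windows of the same length in the RefSeq table, 30.9% held CCAAT, 28.3% GGGCGG and 4.97% CACGTG. None of these 3 windows held GTAAACA (FoxO, 2.8% of windows), AGGTCA (nuclear receptor motif, 12.5%), TCAAGGTCA (estrogen-related receptor, 0.362%), AGAACA (glucocorticoid receptor motif, 14.3%) or TATAAA (9.92%). A match describes the letters of the window and not a bound site. TCAAGGTCA contains AGGTCA. RefSeq lists a second start for Pdk1, whose window held 2 matches to AGAACA, and a second one for Pdk2, whose window held 0 matches to any of the motifs; neither is printed. Of the 10 members 9 matched the promoter table by symbol.

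Each library held 22241131 to 23163721 reads counted in genes. Summed markers of fast fibres took 159525 to 191412 CPM (reads of a gene per 1000000 reads counted in genes of that library), led by the myosin Myh4, a level of 58040 to 75704 CPM. Of the libraries 3, DMSO replicates 4 and 5 and Myriocin replicate 4, carried the most of the hepatocyte transcript Alb (85.6, 63.9 and 73.7 CPM), the remaining 8 having from 4.44 to 20.6 CPM, and DMSO replicate 2 held the most neutrophil (749 CPM summed over 8 markers) and adipocyte transcripts (1280 CPM over 7). Myh2 (364 to 2162 CPM) led the list of oxidative slow fibre markers. It encodes the fast oxidative myosin of type 2A, so that list does not hold slow fibre genes alone. Leading genes of the other marker lists were Cyp2e1 in hepatocytes, Cfd in adipocytes, Cidea in brown adipocytes, Cdh5 in endothelium and Dcn in fibroblasts. Further ones were C1qa in macrophages, S100a9 in neutrophils, Hbb-bs in erythroid cells and Actc1 in cardiac muscle. By the sum of the hepatocyte markers DMSO replicate 2 was highest, at 221 CPM, of which Cyp2e1 made up 212 CPM. In tissue RNA, fewer cells of a type and less RNA per cell cannot be told apart.

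The subunits of the complex did not differ between the groups beyond the scatter of the libraries, and their 95% intervals lay within 0.25 of 0 on the log2 scale. Pdha1 (ENSMUSG00000031299, GRCm38 chromosome X, 160122209 to 160138413, minus strand) encodes the alpha subunit of the first enzyme, the site of regulation. It stood at 453, 374, 462, 424 and 350 CPM in DMSO replicates 1 to 5, and at a lowest of 329, a median of 416 and a highest of 442 CPM with myriocin. The groups overlapped, with Myriocin replicate 4 the lowest of all libraries. The means were 413 ± 49 CPM (SD, n = 5) and 406 ± 40.3 CPM (SD, n = 6), and the log2 fold change, myriocin minus DMSO, was 0.01 (SE 0.09, 95% interval from -0.18 to 0.20).

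Pdhb (ENSMUSG00000021748, chromosome 14, 8165996 to 8173025, minus strand), the beta subunit of the same enzyme, stood at 240, 251, 256, 223 and 261 CPM with DMSO and from 218 over a median of 236 to 250 CPM with myriocin. Its log2 fold change was -0.02 (SE 0.07, interval from -0.16 to 0.12). Dlat (ENSMUSG00000000168, chromosome 9, 50634633 to 50659780, minus strand) encodes the acetyltransferase core. It stood at 219, 198, 214, 187 and 195 CPM with DMSO and from 177 over 193 to 223 CPM with myriocin, both the lowest and the highest library being myriocin ones. Pdhx (ENSMUSG00000010914, chromosome 2, 103021075 to 103073513, minus strand), the protein that binds the third enzyme to the core, lay at 75.8, 70.6, 77, 72.4 and 78.1 CPM with DMSO and from 68.2 over 73.3 to 80.8 CPM with myriocin. The log2 fold changes of Dlat and Pdhx were -0.01 (SE 0.07) and 0.01 (SE 0.06).

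Across the 11 libraries Pdhx and Pdhb varied little, while Pdha1 varied about as much as the median gene. The coefficient of variation (SD as a share of the mean) was 10.3% for Pdha1, 5.63% for Pdhb, 7.74% for Dlat and 5.12% for Pdhx. Over the 9183 tested genes with a mean of at least 5 CPM the median was 10.9%, and Pdhx, Pdhb, Dlat and Pdha1 lay at percentiles 3.58, 5.68, 22.3 and 45.7 of them. The core pair Dlat and Pdhx kept a ratio, per length of exon, between 2 and 2.32 in every library. Pdhb over Pdha1 was less even, from 0.51 to 0.721, the highest values being those of DMSO replicate 5 (0.721) and Myriocin replicate 4 (0.692), the libraries with the lowest Pdha1.

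**Figure D1:**
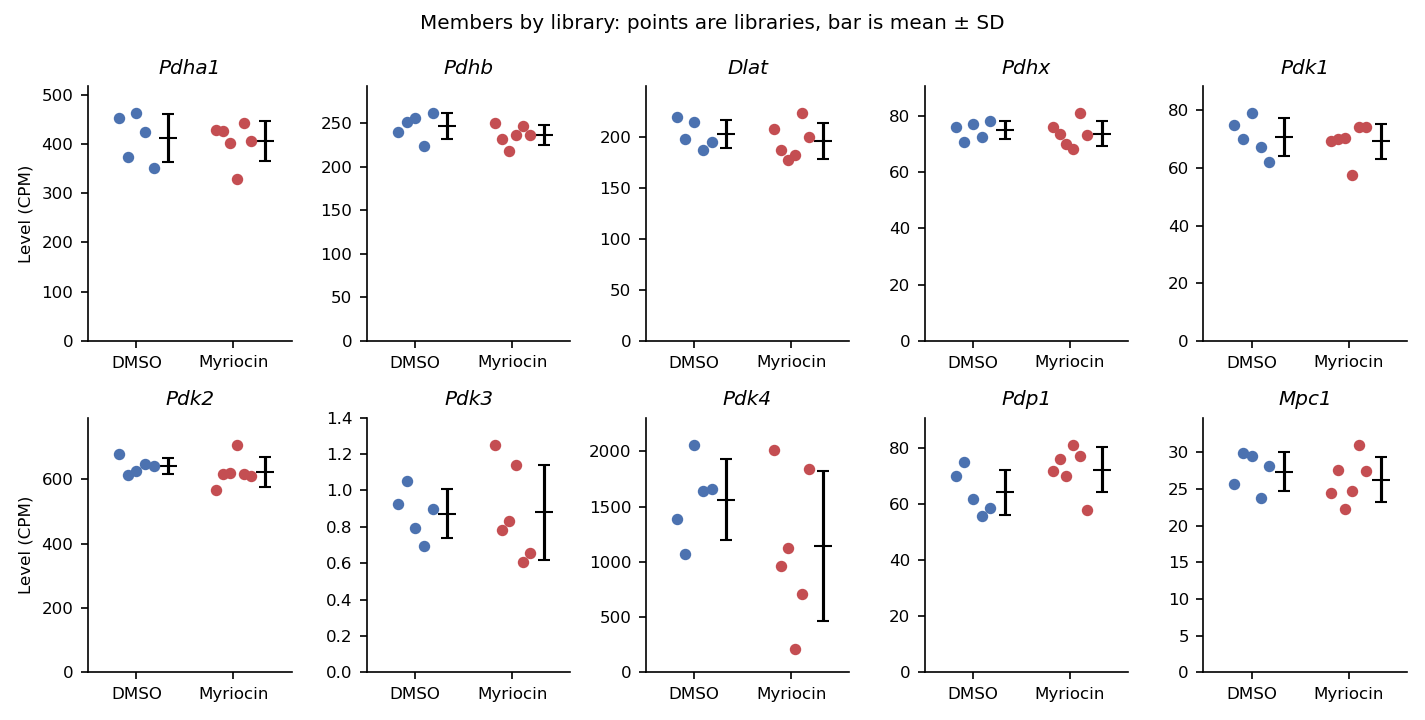
Level of each member in CPM (vertical axis, from 0) by group, with 1 point per library and the mean ± SD beside it (DMSO n = 5, myriocin n = 6). The groups overlapped for all 10 members, and Pdk4 spread the most, from 214 to 2058 CPM.

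Among the kinases, Pdk1 and Pdk2 had coefficients of variation of 8.65% and 5.92%, within the range of the subunits. Pdk2 (ENSMUSG00000038967, chromosome 11, 95026258 to 95041354, minus strand) stood at 680, 614, 625, 646 and 642 CPM with DMSO and from 567 over 616 to 707 CPM with myriocin. Myriocin replicate 4 was the highest and Myriocin replicate 1 the lowest of all 11 libraries. The log2 fold change was -0.01 (SE 0.07, interval from -0.16 to 0.15).

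Pdk1 (ENSMUSG00000006494, chromosome 2, 71873224 to 71903858, plus strand), the kinase known as a target of hypoxia inducible factor, stood at 74.7, 70.1, 78.9, 67.2 and 61.9 CPM with DMSO and from 57.5 over 70.2 to 74.1 CPM with myriocin. The log2 fold change was 0.01 (SE 0.07). Its lowest library was Myriocin replicate 4. Pdk3 (ENSMUSG00000035232, chromosome X, 93764607 to 93832201, minus strand) was present in traces, with 14 to 29 reads per library. It lay between 0.693 and 1.05 CPM with DMSO and between 0.609 and 1.25 CPM with myriocin, and at this depth its interval was wide, from -0.44 to 0.54.

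Pdk4 (ENSMUSG00000019577, chromosome 6, 5483351 to 5496309, minus strand) was the kinase transcript with the highest mean level per length and the most variable member. It stood at 1385, 1071, 2058, 1641 and 1660 CPM in DMSO replicates 1 to 5. In Myriocin replicates 1 to 6 it stood at 2010, 958, 1129, 214, 706 and 1836 CPM. Myriocin replicates 2, 4 and 5 lay below every DMSO library, while replicates 1 and 6 lay above the DMSO mean, so the groups overlapped.

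The mean Pdk4 level was 1563 ± 365 CPM (SD, n = 5) in DMSO libraries against 1142 ± 681 CPM (SD, n = 6) in myriocin libraries, and 4 of 6 myriocin libraries lay below the DMSO mean. The log2 fold change was -0.43 (SE 0.47, interval from -1.48 to 0.63), with an adjusted p of 0.946 in edgeR, so the difference did not exceed the spread between libraries. Without Myriocin replicate 4 the value was -0.212 (SE 0.307), and without Myriocin replicate 1 it was -0.673 (SE 0.467).

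The spread of Pdk4 was larger with myriocin than with DMSO as a description, with coefficients of variation of 59.6% and 23.4%; the difference in spread was not tested. Over all 11 libraries it was 43.3%, at percentile 98.5 of the tested genes with at least 5 CPM, and the highest library held 9.6 times the level of the lowest. The reads behind these levels numbered 4878 to 46676 per library.

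The 2 libraries with the least Pdk4, Myriocin replicates 4 and 5, also held the most erythroid transcripts, 235 and 212 CPM summed over 6 markers against 46.1 to 128 CPM in the other 9, and the fewest macrophage transcripts, 73.7 and 79.9 CPM over 7 markers against 98.5 to 174 CPM. The macrophage sums did not hold for every marker, in genes named here after their values were seen. Csf1r, C1qa and C1qb were lowest in these 2 libraries. DMSO replicate 5 had the least Mrc1 (6.47 CPM) and Cd163 (7.46 CPM). Myriocin replicate 2 had less Adgre1 (4.88 CPM) and Cd68 (4.4 CPM) than Myriocin replicate 5. All 6 erythroid and all 7 macrophage markers had counts, and their part in the Pdk4 values was not tested. Both lists were picked from the marker lists after their values were seen. The 3 libraries with the most Alb had 1641 and 1660 CPM of Pdk4 (DMSO replicates 4 and 5) and 214 CPM (Myriocin replicate 4). Without these 3 libraries the log2 fold change of Pdk4 was -0.129 (SE 0.407), and the part of liver transcripts in it was not tested.

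The make-up of the kinase transcripts differed from library to library, and most so in Myriocin replicate 4. Per kilobase of exon, Pdk4 made up 63.7%, 60%, 73.8%, 68.7% and 69.1% of the sum of the 4 kinases in the DMSO libraries. In the myriocin libraries it made up 75.2%, 57.2%, 61.1%, 20.9%, 49.6% and 72%. In Myriocin replicate 4 Pdk2 held 76.5% of the sum, and in Myriocin replicate 5 the pair was nearly even, Pdk2 holding 48%. The mean Pdk4 shares were 67% ± 5.34 (SD, n = 5) and 56% ± 19.6 (SD, n = 6), given as a description with no test.

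The summed kinases lay between 293 and 794 CPM per kilobase, a 2.71-fold range. Without Pdk4 the sum lay between 189 and 231, a 1.23-fold range. Set against Pdha1, the subunit they phosphorylate, the summed kinases came to 5.07 to 7.3 times its level with DMSO and to 3.32 to 6.67 times with myriocin, and the groups overlapped.

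**Figure D2:**
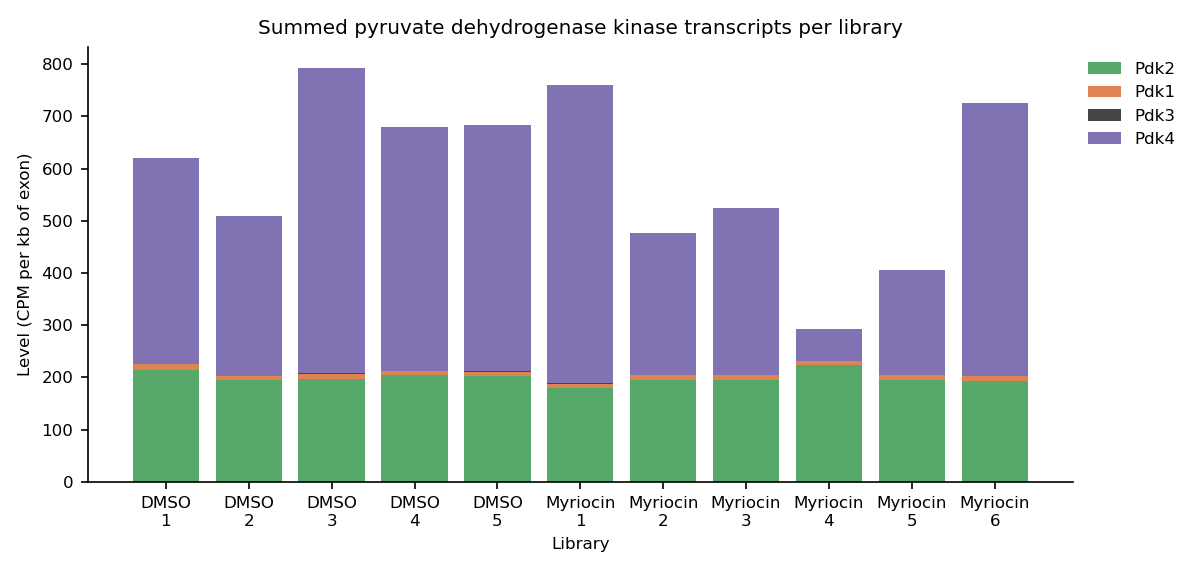
Stacked level of Pdk2, Pdk1, Pdk3 and Pdk4 in CPM per kilobase of exon (vertical axis, from 0) in each of the 11 libraries. The Pdk2 part stays between 179 and 224, while the Pdk4 part runs from 61 in Myriocin replicate 4 to 586 in DMSO replicate 3.

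Pdp1 (ENSMUSG00000049225, chromosome 4, 11958184 to 11966452, minus strand), the phosphatase that reactivates the complex, had the smallest p of the members. It stood at 70.1, 75.1, 62.1, 55.9 and 58.7 CPM with DMSO and at 71.9, 76.1, 70.1, 81.3, 77.4 and 58 CPM with myriocin. Of the myriocin libraries 3 lay above every DMSO library and 5 of 6 above the DMSO mean, while Myriocin replicate 6 was among the lowest. The means were 64.4 ± 7.99 CPM (SD, n = 5) and 72.5 ± 8.14 CPM (SD, n = 6). The fit, which scales the libraries by TMM, gave a log2 fold change of 0.21 (SE 0.09, interval from 0.01 to 0.41). The unadjusted p was 0.0385 and the adjusted p 0.936 in edgeR, so Pdp1 did not pass. With no scaling beyond library totals the log2 fold change was 0.170 (SE 0.096), with an unadjusted p of 0.0972 in edgeR. Without the 3 libraries with liver transcripts the log2 fold change was 0.089 (SE 0.096).

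Pdp2, the second phosphatase and no member, went the other way. It stood at 10.5, 9.41, 16.9, 8.66 and 8.36 CPM with DMSO and at 9.32, 6.36, 5.86, 5.4, 8.87 and 7.11 CPM with myriocin. DMSO replicate 3 was the highest, and the groups overlapped. Its log2 fold change was -0.55 (SE 0.19), and in edgeR the adjusted p came to 0.936. The ratio of Pdp1 to Pdp2, per length, was 4.63 to 10.1 in DMSO libraries and 9.74 to 19 in myriocin libraries, with only DMSO replicate 2 (10.1) and Myriocin replicate 1 (9.74) crossing; this ratio was chosen after its values were seen and is given with no test.

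Mpc1 (ENSMUSG00000023861, chromosome 17, 8282904 to 8297661, plus strand) is a subunit of the carrier that brings pyruvate through the inner mitochondrial membrane. It stood at 25.6, 29.9, 29.5, 23.7 and 28.1 CPM with DMSO and from 22.3 over 26.1 to 31 CPM with myriocin. The log2 fold change was -0.02 (SE 0.09, interval from -0.21 to 0.16). Its partner Mpc2 stood at 187 ± 32 CPM (SD, n = 5) and 173 ± 16.6 CPM (SD, n = 6), and the ratio of Mpc1 to Mpc2 per length lay between 0.412 and 0.584 in all libraries.

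Shared sequence could add or remove reads for Mpc1 and Pdha1. Of the exonic bases of Mpc1, 23.1% overlap 4930506C21Rik on the opposite strand, and a processed pseudogene, Mpc1-ps, is annotated on chromosome 12. Of those of Pdha1, 16.1% overlap Map3k15 on the opposite strand. The strand setting of the counting is not given in the sources used here. The other 8 members share no exonic base with another annotated gene.

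Per length of exon, with all exons of a gene merged, the members fell in the order Pdk4, Pdk2, Pdha1, Pdhb, Dlat, Pdhx, Pdp1, Mpc1, Pdk1 and Pdk3. This order and the ratios between genes depend on the length used. Per longest coding transcript, computed for the kinases only, the mean Pdk4 share with DMSO was 59.3% in place of 67%. Mean levels over the 11 libraries were 380 ± 164 CPM per kilobase for Pdk4 and 200 ± 11.8 for Pdk2, then 109 ± 11.3 for Pdha1, 62.4 ± 3.51 for Pdhb and 40.8 ± 3.16 for Dlat (SD, n = 11). Pdhx had 18.9 ± 0.966, Pdp1 15.3 ± 1.94, Mpc1 12.8 ± 1.35, Pdk1 8.98 ± 0.776 and Pdk3 0.342 ± 0.0794 CPM per kilobase. With merged exons, the ranges of neighbours overlapped between Pdk4 and Pdk2, between Pdhx and Pdp1 and between Pdp1 and Mpc1, and at no other step. Dld, the third enzyme of the complex, which other complexes share, had 55.9 ± 2.55 CPM per kilobase. Pdha2, the testis form of the alpha subunit, had 0 counts in each library, which allows up to 0.13 to 0.135 CPM (3 counts per library).

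None of the 10 members passed the test between groups. All 10 were among the 14117 genes that passed the filter on low counts and were tested with edgeR, where 0 members and 0 genes (0%) had an adjusted p under 0.05. At an unadjusted p under 0.05 there was 1 member, Pdp1, against 660 of all genes (4.68%), 329 of them higher (2.33%) and 331 lower (2.34%). DESeq2 and limma-voom also called 0 members, with 1 member each at an unadjusted p under 0.05. No member separated the groups without overlap, which 85 of all tested genes did (0.602%).

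The sign was positive for 5 members and negative for 5. Their median log2 fold change was 0.00, that of all tested genes was -0.01, and 53.7% of all tested genes were below 0. For 7 members, all but Pdk3, Pdk4 and Pdp1, the whole 95% interval lay within 0.25 of 0 on the log2 scale, as it did for 27.1% of all tested genes. The direction of these 7 and of Pdk3 turned with the libraries or the scaling used.

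**Figure D3:**
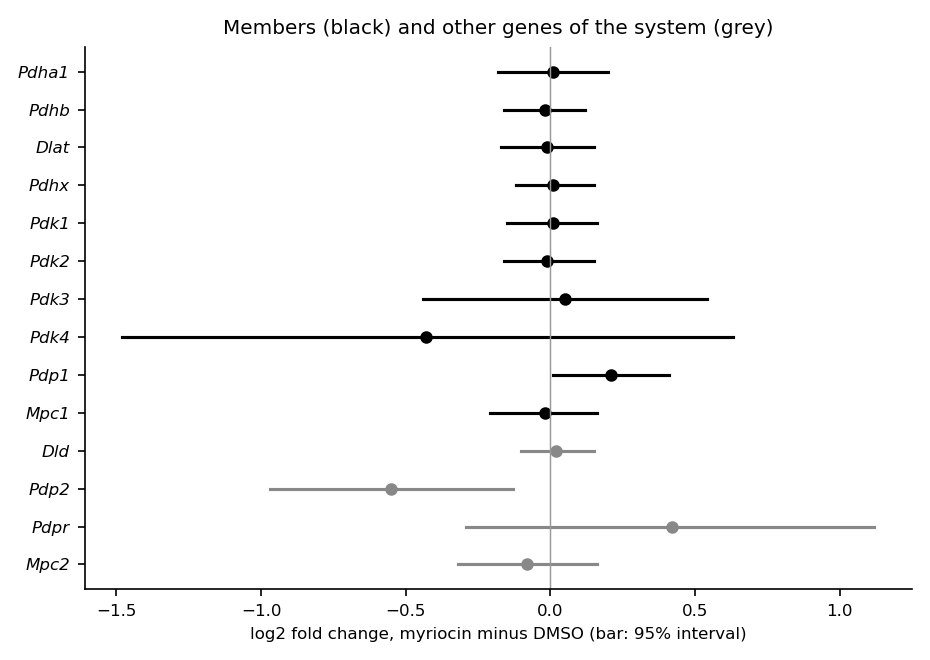
Log2 fold change, myriocin minus DMSO, with its 95% interval (horizontal axis) for the 10 members in black and for Dld, Pdp2, Pdpr and Mpc2 in grey. The Pdk4 interval, from -1.48 to 0.63, is the widest, and those of the subunits lie within 0.25 of 0.

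The other genes of the system and its surroundings were taken from fixed lists, and 0 genes of any list passed the adjusted threshold in edgeR. Of the other genes of the pyruvate dehydrogenase system 4 of 6 were tested, 2 higher and 2 lower. After Pdp2 the smallest p belonged to Pdpr, the regulatory subunit of the phosphatase. It stood at 74.1, 67, 98.3, 59.9 and 36.3 CPM with DMSO and from 30.4 to 108 CPM with myriocin (log2 fold change 0.42, SE 0.32). Its lowest libraries were Myriocin replicate 4 (30.4 CPM) and DMSO replicate 5 (36.3 CPM), the same 2 libraries that had the least Pdha1.

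Among 13 genes of pyruvate and lactate handling 4 were higher and 9 lower, with a median log2 fold change of -0.04. The smallest p belonged to Ldhb, the lactate dehydrogenase subunit of oxidative tissue (-0.51, SE 0.27), and Pkm, the pyruvate kinase of muscle (0.16, SE 0.09). Of 14 tested genes that supply lipoic acid and thiamine, the cofactors of the complex, 10 were lower, with a median of -0.07. Iba57, a factor of iron-sulfur cluster assembly, stood at 18.4, 18.3, 22, 18.3 and 20.7 CPM with DMSO and at 16.2, 17.8, 15.9, 13, 15.4 and 15.9 CPM with myriocin. These groups did not overlap, but the log2 fold change of -0.28 (SE 0.09) had an adjusted p of 0.936 in edgeR. The thiamine transporter Slc19a2 followed (-0.23, SE 0.12).

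The sister complexes for 2-oxoglutarate and branched-chain 2-oxoacids had 3 genes higher and 6 lower of 9, all between -0.12 and 0.04, with Bckdhb (-0.12, SE 0.08) and Ogdhl (-0.10, SE 0.16) first by p. Of 16 regulators known to act on Pdk4, 6 were higher and 10 lower, with a median of -0.04. Nr4a1, an orphan nuclear receptor, had 0.27 (SE 0.12) and Foxo4 had -0.11 (SE 0.07). Among 12 targets of hypoxia inducible factor, which include no member, 8 were higher and 4 lower (median 0.04), led by Vegfa (-0.15, SE 0.11) and Egln3 (-0.20, SE 0.15).

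Among the pathway lists, the PPAR targets of muscle lipid use had the median farthest from 0. All 21 lay below 0, between -0.68 and -0.06, their median being -0.25, and 8 had an unadjusted p under 0.05 in edgeR. Of all tested genes 53.7% lay below 0, and 2.34% were lower with an unadjusted p under 0.05. Mlycd, malonyl-CoA decarboxylase, had -0.31 (SE 0.08) and Lpl, lipoprotein lipase, -0.59 (SE 0.18), both with an adjusted p of 0.936 in edgeR. The list overlaps the fatty acid genes that earlier results of these data had shown to be low, so its direction is not independent evidence. Of the marker lists, lower values were found for 9 of 9 tested endothelial, 6 of 7 adipocyte and 7 of 9 oxidative slow fibre genes. Also lower were 8 of 9 hepatocyte, 5 of 7 macrophage, 3 of 3 neutrophil and 3 of 4 cardiac genes. So was the 1 tested brown adipocyte gene. Higher values were found for 6 of 6 erythroid, 8 of 11 fast fibre and 4 of 6 fibroblast genes. Summed neutrophil markers were 749 CPM in DMSO replicate 2, 0.405 to 35 CPM in the other DMSO libraries and 0.615 to 103 CPM with myriocin. Summed adipocyte markers were 1280 CPM in that library and 155 to 322 CPM in the other DMSO ones. Cidea, the brown adipocyte gene, had 34.9 CPM against 0.854 to 2.34 CPM. The lower neutrophil, adipocyte and brown adipocyte values thus leaned on a single DMSO library. This did not apply to the endothelial markers, whose sum in that library was the lowest of the DMSO ones (318 CPM, highest 364 CPM). The part of the listed cell types in the direction of the PPAR targets was not tested. Genes induced by FoxO factors and glucocorticoids, the other known route to Pdk4, were divided, 9 higher and 8 lower with a median of 0.00. First by p were the metallothioneins Mt2 (1.18, SE 0.57) and Mt1 (0.65, SE 0.34). Mt2 was near the floor, at 0.13 to 0.828 CPM with DMSO and 0.348 to 2.67 CPM with myriocin.

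Library by library, the transcript most like Pdk4 among the 8940 named genes with at least 5 CPM was Ucp3, a mitochondrial uncoupling protein of muscle and a PPAR target on the fixed list. Ucp3 stood at 297, 222, 417, 308 and 308 CPM with DMSO and at 439, 220, 217, 70.2, 141 and 269 CPM with myriocin. It was lowest in the same 2 libraries as Pdk4, Myriocin replicates 4 and 5. Pearson's r of the log2 CPM values was 0.97 over the 11 libraries and 0.94 without Myriocin replicate 4. Its log2 fold change between the groups was -0.43 (SE 0.39).

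Next were Adgrl4, an adhesion receptor of endothelium (r = 0.93, and 0.77 without Myriocin replicate 4), and Tbc1d1, a regulator of glucose transporter traffic in muscle (0.91 and 0.88). At the other end stood the cold-inducible RNA-binding protein Rbm3 (-0.91 and -0.74) and Mypop (-0.88 and -0.52). These values rank genes over libraries that share tissue and depth, and carry no test.

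Likeness to Pdk4 differed within the lists of its known regulators' targets. Among the 21 PPAR targets r ran from -0.03 (Lpl) to 0.97 (Ucp3), with a median of 0.32, against a median of 0.09 over all 14116 other tested genes. Among the 17 FoxO and glucocorticoid genes it ran from -0.23 to 0.90 with a median of 0.16, the highest being Fbxo30 (0.90), Zbtb16 (0.85), Fbxo32 (0.84) and Trim63 (0.74), named after their values were seen. Fbxo30 stood at 10.4 CPM in Myriocin replicate 4 and from 14.1 to 17.9 CPM in the other libraries. The r values of these lists were not computed without that library, so its weight in them is not known. Fbxo32 and Trim63 are the ubiquitin ligases known from muscle wasting. The macrophage markers had r from 0.30 to 0.84 in all 7 genes and the erythroid markers from -0.62 to -0.50 in all 6, beside the Pdk4 values given above. Both lists were named after their values were seen, and other lists also had a single sign. Fibroblast markers were all positive (0.15 to 0.64). Tested neutrophil (-0.56 to -0.55), oxidative slow fibre (-0.31 to -0.07), hepatocyte (-0.46 to -0.19) and adipocyte markers (-0.41 to -0.20) were all negative.

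Within the system, Pdk4 and Pdp1 ran in opposite directions over the libraries. Myriocin replicate 4, with the least Pdk4, had the most Pdp1 (81.3 CPM), and Myriocin replicate 5, second lowest in Pdk4, was second highest in Pdp1 (77.4 CPM). Pearson's r was -0.71 and Spearman's rho -0.75 (n = 11 libraries). It was -0.72 without Myriocin replicate 4, -0.65 without the 2 libraries farthest from the median of Pdk4, and -0.72 within the 6 myriocin libraries. It was picked from 45 pairs of members after their values were seen and is given as a description.

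Some other pairs changed much when Myriocin replicate 4 was left out, and some changed less. Pdk4 and Pdk2 had r = -0.59 over 11 libraries and -0.07 without Myriocin replicate 4, and Pdk4 and Pdk1 had 0.59 and -0.03. Pdha1 and Pdk1 had 0.88 and 0.78. Dlat and Pdhx, partners in the core, had 0.79 and 0.75, and Pdhb and Mpc1 had 0.70 and 0.70. Leaving out the 2 libraries farthest from the median of 1 gene of the pair lowered these values. Pdha1 and Pdk1 then had 0.56, Dlat and Pdhx 0.64 or 0.65, and Pdhb and Mpc1 0.58 or 0.37, depending on the gene. These pairs too were picked after their values were seen.

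**Figure D4:**
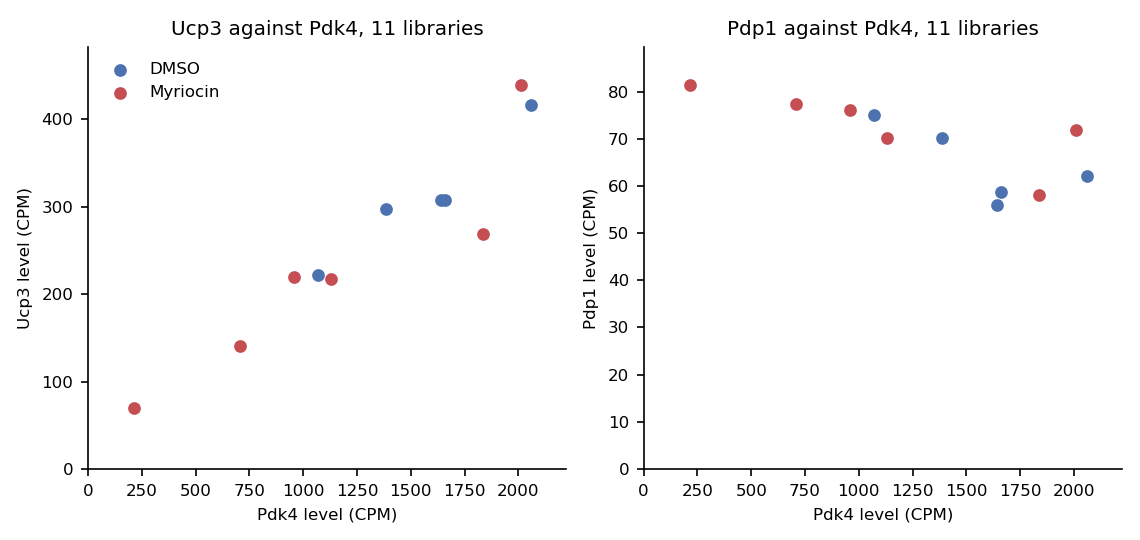
Level of Ucp3 (left) and Pdp1 (right) in CPM against the level of Pdk4 in CPM, 1 point per library, axes from 0. Ucp3 rises with Pdk4 from 70.2 to 439 CPM, and Pdp1 is highest, at 81.3 CPM, where Pdk4 is lowest, at 214 CPM.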

How the data were processed

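The 11 libraries came as raw gene counts that the authors deposited in 1 table. The submitters' processing notes name STAR 2.5.2b, HTSeq 0.6.0 and GRCm38, while the sources used here give neither annotation release nor strand setting. The 5 summary lines (24.8% to 28.2% of a library's reads) stayed out of library sizes and tests. Symbols, coordinates and exonic lengths (all exons of a gene merged) came from GENCODE M21, which held 53360 of the 53465 genes. Columns were assigned by name, and 0 were left unassigned. CPM values use the reads in genes, without TMM. One read was 0.0432 to 0.045 CPM.

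All genes were fitted with edgeR 4.0.16 (R 4.3.3): filterByExpr by group (minimum count 10, minimum total 15), TMM, robust quasi-likelihood F test, treatment as the single factor, 2-sided, Benjamini-Hochberg over 14117 genes, threshold 0.05. The SE follows from the log2 fold change and the F statistic. The fit was tested on simulated data. Alternatives were DESeq2 1.42.0, limma-voom (limma 3.58.1), 3 scalings, 2 filters, leaving out mitochondrial and the 20 most abundant genes, each library in turn, 2 sets of 3 libraries, a replicate block and 1 surrogate variable (sva 3.50.0). Kinase shares per longest coding transcript were added after seeing the data.

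Named genes were all members, the 2 of each pathway list with the smallest p, and the 3 most alike (for Pdk4 also least alike) to Pdk4, Pdk2, Pdha1 and Mpc1 by Pearson's r of log2 CPM (prior count 2), among tested genes with a mean of at least 5 CPM and no predicted-gene symbol, and the leading gene of each marker list. Of these genes, 1 is not reported here. Genes outside this rule are marked in the text as chosen after their values were seen, or serve as partners of a member. Further exceptions are Alb, by which the libraries with liver transcripts were named, and genes that share sequence with a member. Members, lists and tests were chosen with earlier results of these data known. Floors of 3 counts cover counting error only.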

Additional observations from a re-analysis of the deposited data

Results flagged for a closer look

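Of the 20 sets of values examined (10 members in 2 groups), 3 held a library far from the rest of its group by Dixon's criterion, and each time it was Myriocin replicate 4. Pdha1 stood there at 329 CPM, the next myriocin library being at 401 CPM. Pdk1 stood at 57.5 CPM, the next at 69.3 CPM. Pdk2 stood at 707 CPM, above the next at 618 CPM. Chance marks about 1 in 20 such sets. The same library held the lowest Pdk4 (214 CPM) and the highest Pdp1 (81.3 CPM) of all 11, which this criterion did not mark, and it is 1 of the 3 with liver transcripts. What sets it apart was not tested.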

How the results depend on the processing

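Over 23 alternatives to the main analysis 0 of 230 member values passed the threshold, and the direction of Pdk4 and Pdp1 held in all of them. Pdk4 ranged from -0.863 (replicate block) to -0.129 (without the 3 libraries with liver transcripts), with adjusted p from 0.828 to 1, and Pdp1 from 0.089 to 0.273, with an unadjusted p under 0.05 in 13 of 23 and adjusted p from 0.544 to 1. The other 8 members, all near 0, turned sign in 42 values, and the cause was not tested. With each library left out in turn, Pdha1 ran from -0.039 to 0.054, Pdhb from -0.052 to 0.012, Dlat from -0.045 to 0.021, Pdhx from -0.025 to 0.040, Pdk1 from -0.026 to 0.049, Pdk2 from -0.059 to 0.016, Pdk3 from -0.078 to 0.145 and Mpc1 from -0.071 to 0.022. Without the 3 libraries farthest out Mpc1 was 0.036, Pdha1 -0.063, Pdhb 0.003 and Pdk1 -0.019. With a surrogate variable Pdha1 was -0.003 and Pdk1 -0.001. Without scaling Pdha1 was -0.025, Pdhx -0.023 and Pdk1 -0.028. Without the liver transcript libraries Pdk1 was -0.007 and Pdk3 -0.098. Over all genes the count past the threshold was 3 with DESeq2, 1 with a surrogate variable and 0 otherwise; without Myriocin replicate 4, genes with an unadjusted p under 0.05 numbered 1449 in place of 660, and the cause was not tested.

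Libraries of the same number did not deviate together over all genes (correlations from -0.13 to 0.09 for the 5 numbers). Such correlations cannot exclude a shared factor with a smaller effect. In the main analysis the numbers were used as names of libraries only. With the replicate block over 10 libraries 0 genes passed, 509 had an unadjusted p under 0.05, Pdk4 was -0.863, Pdp1 0.273 and Pdk1 -0.010, and no call changed. Per longest coding transcript in place of merged exons the Pdk4 share of the kinases was 59.3% in place of 67% with DMSO and 48.7% in place of 56% with myriocin. With that length Pdk2 held 55.8% and Pdk4 41.3% in Myriocin replicate 5, and each held 48.8% in Myriocin replicate 2. Which library had a nearly even pair therefore depended on the length used. Depth limits Pdk3, with 14 to 29 reads a library.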

Other observations

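The genes most like the other members over the 11 libraries are given as values, with no test. Pdha1 was most like Tjp1, a protein of tight junctions (r = 0.97, and 0.95 without Myriocin replicate 4), Plekha1 (0.96 and 0.95) and Pptc7, a mitochondrial phosphatase (0.96 and 0.93). Pptc7 ran from 89.8 to 160 CPM, lowest in Myriocin replicate 4 and DMSO replicate 5 (98.2 CPM), where Pdha1 and Pdpr were also lowest. Pdk2 was most like Fzr1, an activator of the anaphase-promoting complex (0.92 and 0.87), the splicing factor Sf3a2 (0.91 and 0.88) and Zfp3 (0.90 and 0.88). Mpc1 was most like Cers4, a ceramide synthase (0.93 with and without that library), at 4.33 to 6.65 CPM, the transcription factor Fli1 (0.89 and 0.90) and the receptor Nrp1 (0.86 and 0.87). None of these 9 genes passed the test between groups, the log2 fold changes lying between -0.10 and 0.01.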
